A study of Homo sapiens with 6 samples.

Results

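The 10 genes described here report the output of the ERK pathway or restrain it. They are the phosphatase genes DUSP4, DUSP5 and DUSP6, the Sprouty genes SPRY2 and SPRY4, the SPRED genes SPRED1 and SPRED2, the ETS transcription factor genes ETV4 and ETV5, and PHLDA1. They were taken by symbol from a table of 19727 genes, and all 10 were found. They were picked with their difference between the 2 groups of libraries already known, so that difference is given below as a description and is not tested for them.

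The cells were DU145, a long-established line from a human prostate carcinoma. The study compared cells transduced with a control lentivirus (labelled NC, genotype normal) with cells transduced with a lentivirus that overexpresses the circular RNA circCSPP1 (labelled OE, genotype circCSPP1 overexpression). Cells of both groups were selected with puromycin to give stable lines. Polyadenylated RNA of 3 NC and 3 OE libraries was sequenced in paired-end mode, and each gene has 1 FPKM value (fragments per kilobase of transcript per 1000000 fragments) in each library. The labels do not say whether the 3 libraries of a group came from separate cultures. Error values and p-values therefore measure the spread between these libraries, which may be technical, and each group rests on a cell line made with its own vector.

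The libraries held 28800000 to 36700000 fragments, as read from the steps between low FPKM values, and the depths of the groups overlapped. CSPP1, the gene from which the circular RNA comes, was higher in all 3 OE libraries (14.5 to 22.8 FPKM) than in all 3 NC libraries (9.11 to 10.1 FPKM). A single FPKM value per gene does not separate circular from linear RNA. The libraries were made from polyadenylated RNA, and how much circular RNA they held was not measured. The study reported that its vectors left linear CSPP1 mRNA (by qRT-PCR) and CSPP1 protein unchanged. Why CSPP1 was higher here was not tested. OE replicate 1 stood apart from the other OE libraries. Its departure from them followed the GC content of the transcript across genes (Spearman's rho 0.784, a description across genes). The same measure was -0.733 in OE replicate 2, -0.482 in OE replicate 3 and -0.0565 to 0.0979 in the NC libraries. Each library was set against the others of its group, so the OE values depend on each other. Values without OE replicate 1 are given for some named genes, and other named genes also moved without it. Of 5 epithelial markers, KRT8, KRT18, EPCAM and CDH1 were found in every library, and KRT5 stayed under 1 FPKM. Their summed level was 1729 to 1801 FPKM in NC and 715 to 855 FPKM in OE, and its part in the results below was not tested. KLK3 was listed at 0 in all 6 libraries. Of 4 immune markers, CD3E was listed at 0 and PTPRC reached at most 0.08 FPKM, while CD14 measured 0.80 to 2.42 FPKM and CD68 35.8 to 50.4 FPKM, and their sum was 46.2 to 52.1 FPKM in NC and 36.6 to 51.7 FPKM in OE. Of 4 fibroblast markers, 3 stayed under 1 FPKM and COL1A1 measured 2.60 to 4.06 FPKM in NC and 0.99 to 1.36 FPKM in OE (sums 2.85 to 4.34 and 1.30 to 1.97 FPKM). All 3 endothelial markers stayed under 1 FPKM (sums 0.28 to 0.62 and 0.16 to 0.56 FPKM). The part of these markers in the results was not tested.

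In the ERK pathway, receptor tyrosine kinases activate RAS, which starts a cascade of the kinases RAF, MEK and ERK. Active ERK switches on transcription, and some of the genes it induces encode proteins that switch the pathway off again. DUSP4, DUSP5 and DUSP6 remove phosphate from ERK itself, while Sprouty and SPRED proteins act between the receptor and RAF. ETV4 and ETV5 are transcription factors that carry the signal on, and PHLDA1 is an induced pleckstrin-homology-like protein. Levels of such transcripts are widely used to read pathway activity in cancer cells. ERK phosphorylation and activity were not measured in these libraries, so whether the pathway was more active in OE was not tested.

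All 10 genes had a higher mean in OE than in NC. In 9 of the 10, each of the 3 OE values lay above each of the 3 NC values, and SPRED1 was the exception. Tests used the 12322 genes whose mean reached 1 FPKM, a filter that all 10 passed. Of these 12322 genes the OE values lay entirely above the NC values in 16.0% and entirely below in 20.5%, or 36.4% in either direction. Because the genes were chosen on this contrast, nothing is read from the count. The median difference, OE minus NC on the log2(FPKM + 1) scale, was 0.75 for the 10 genes and -0.028 for all 12322 genes. The differences ran from 0.24 in SPRED1 to 1.88 in DUSP6. On this scale a difference understates the change of a gene with low FPKM.

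**Figure D1:**
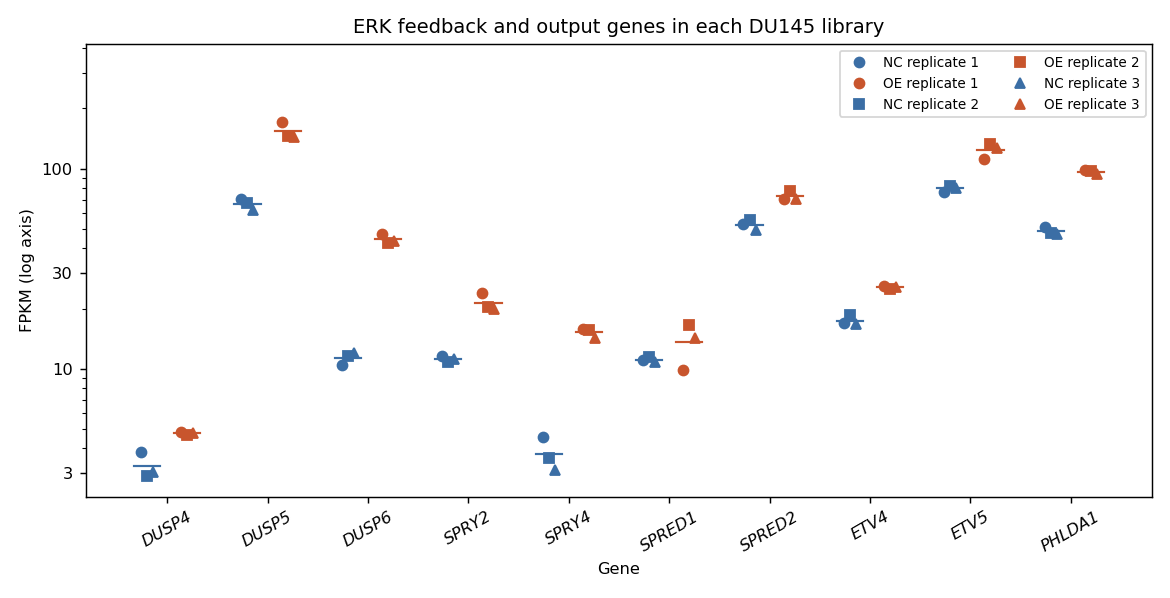
FPKM on a log axis for the 10 genes in the 3 NC libraries (blue) and the 3 OE libraries (orange), with a line at each group mean and a marker shape for each replicate number. The OE points lie above the NC points in every gene but SPRED1, where OE replicate 1, at 9.92 FPKM, lies below the NC libraries.

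Among the phosphatases, DUSP6 had the largest difference. DUSP6, a cytoplasmic phosphatase selective for ERK (chromosome 12, 89347232 to 89353271 on GRCh38), measured 10.4, 11.6 and 12.1 FPKM in NC and 47.2, 42.7 and 43.8 FPKM in OE. The groups were far apart, with the lowest OE library above the highest NC library. The means were 11.4 ± 0.833 and 44.6 ± 2.35 FPKM (SD, n = 3), a ratio of 3.92 and a log2 difference of 1.88 (standard error 0.098). Exons of DUSP6 share 1875 of 4632 bases with an antisense gene, AC024909.2, and reads of these bases cannot be told apart without strand information, which the sources used here do not give.

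DUSP5, an inducible nuclear phosphatase of ERK (chromosome 10, 110497838 to 110511544), was the most abundant of the phosphatases. It measured 70.7, 67.3 and 62.3 FPKM in NC and 172, 145 and 144 FPKM in OE. OE replicate 1 was the highest library, and the groups did not overlap. The ratio of the means was 2.303 and the log2 difference 1.19 (standard error 0.099), or 1.10 without OE replicate 1. DUSP4, also an inducible nuclear phosphatase (chromosome 8, 29333064 to 29350668), was the least abundant of the 10 genes. It measured 3.83, 2.91 and 3.04 FPKM in NC and 4.86, 4.66 and 4.77 FPKM in OE, so the gap between the groups was small and NC replicate 1 came closest to OE. The ratio of its means was 1.46 and the log2 difference 0.44 (standard error 0.12). If the longest transcript in GENCODE carried all reads, these values correspond to 464 to 895 fragments per library, the lowest range among the 10 genes.

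Both Sprouty genes were higher in OE, SPRY4 by more than SPRY2. SPRY4 (chromosome 5, 142310427 to 142326455) was low in NC, with 4.55, 3.60 and 3.12 FPKM, and reached 15.9, 15.6 and 14.2 FPKM in OE. No OE library fell near the NC range. The ratio of the means was 4.05, the largest of the 10 genes, and the log2 difference was 1.78 (standard error 0.14). With a pseudocount of 0.1 or 0.01 in place of 1, this difference became 2.01 or 2.03. SPRY2 (chromosome 13, 80335976 to 80340951) measured 11.6, 10.8 and 11.2 FPKM in NC and 23.9, 20.4 and 19.95 FPKM in OE. OE replicate 1 was again the highest library. The ratio of the SPRY2 means was 1.92 and the log2 difference 0.88 (standard error 0.11), or 0.80 without OE replicate 1.

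The SPRED genes, relatives of Sprouty that bring the RAS regulator neurofibromin to the membrane, had the smallest differences beside DUSP4. SPRED2 (chromosome 2, 65310851 to 65432637) measured 53.0, 55.2 and 49.3 FPKM in NC and 70.7, 77.1 and 70.4 FPKM in OE, with no overlap. The ratio of its means was 1.39 and its log2 difference 0.46 (standard error 0.086). SPRED1 (chromosome 15, 38252326 to 38357249) measured 11.0, 11.4 and 10.9 FPKM in NC and 9.92, 16.6 and 14.3 FPKM in OE. OE replicate 1 lay below all NC libraries and the other OE libraries above them, so the groups overlapped. The mean of OE was 13.6 ± 3.40 FPKM against 11.1 ± 0.277 FPKM in NC (SD, n = 3), and the log2 difference of 0.24 (standard error 0.18) was within the spread of the OE libraries.

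SPRED1 was the gene on which OE replicate 1 weighed most. Its longest coding transcript had the lowest GC content of the 10, 38.9%, against 44.3% to 60.8% in the others. Without OE replicate 1 the log2 difference of SPRED1 was 0.44, and without OE replicate 2, its highest library, it was 0.096. After each library was corrected for the GC content and length of transcripts, the difference was 0.30, and the 3 OE values, 3.78, 3.94 and 3.89 on the corrected log2 scale, lay above the 3 NC values of 3.56 to 3.58. The coefficient of variation of SPRED1 in OE was 25.0%, against 2.02% to 10.3% for the other 9 genes in OE. Whether GC content accounts for the low value of SPRED1 in OE replicate 1 was not tested.

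ETV4 and ETV5, ETS factors of the PEA3 group, differed by similar amounts from levels far apart. ETV5 (chromosome 3, 186046308 to 186110318) was the most abundant of the 10 genes in NC, with 76.5, 82.4 and 80.5 FPKM, and measured 112, 133 and 127 FPKM in OE. Here OE replicate 1 was the lowest OE library. The ratio of the ETV5 means was 1.56 and the log2 difference 0.63 (standard error 0.090), or 0.70 without OE replicate 1. ETV4 (chromosome 17, 43527844 to 43579620) measured 16.9, 18.5 and 16.7 FPKM in NC and 26.0, 25.0 and 25.5 FPKM in OE, and its OE libraries were the tightest of the 10 genes. The ratio of the ETV4 means was 1.47 and the log2 difference 0.53 (standard error 0.091). Exons of ETV5 share 164 of 5802 bases with DGKG on the same strand, and those of ETV4 share 68 of 3607 bases with DHX8 on the other strand.

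PHLDA1 (chromosome 12, 76025447 to 76033932) measured 51.3, 47.6 and 47.0 FPKM in NC and 98.8, 97.1 and 93.7 FPKM in OE. Each group was tight and the groups did not overlap. The ratio of the means was 1.98 and the log2 difference 0.97 (standard error 0.078). Antisense genes share 779 and 553 of the 8069 exonic bases of PHLDA1.

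**Figure D2:**
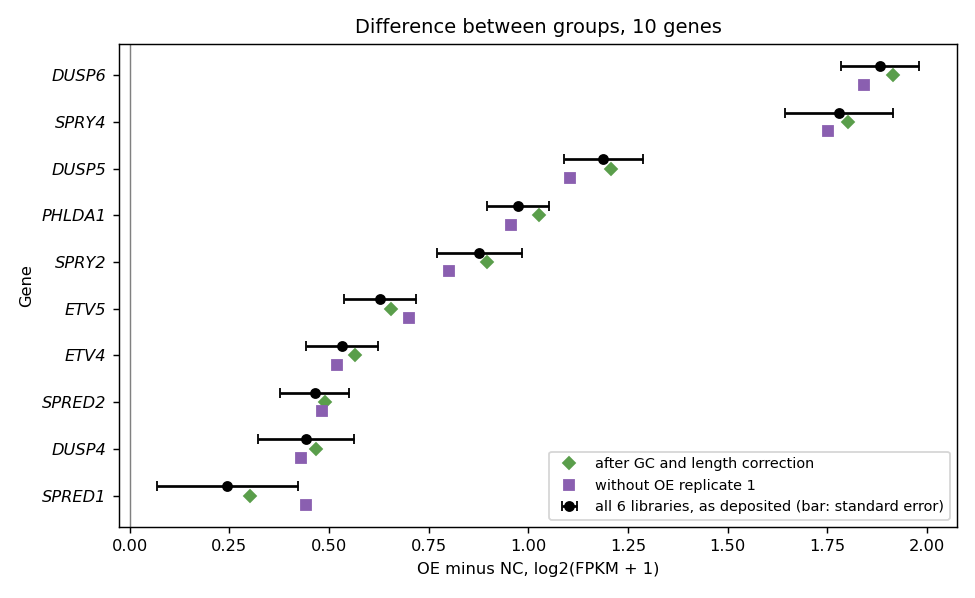
Difference between OE and NC on the log2(FPKM + 1) scale for the 10 genes, as deposited with its standard error (black), after correction for GC content and length (green) and without OE replicate 1 (purple). All points are above 0, from SPRED1 at 0.24 to DUSP6 at 1.88, and SPRED1 is the gene whose value moves most without OE replicate 1.

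Since FPKM is per length, levels are set side by side between genes here as a description. The transcript lengths that the authors used are not known, and the deposited values are used here without a correction for GC content. In NC the order ran from ETV5 (mean 79.8 FPKM) through DUSP5 (66.8), SPRED2 (52.5), PHLDA1 (48.7), ETV4 (17.3), DUSP6 (11.4), SPRY2 (11.2) and SPRED1 (11.1) to SPRY4 (3.76) and DUSP4 (3.26). The neighbours SPRED2 and PHLDA1, DUSP6 and SPRY2, SPRY2 and SPRED1, and SPRY4 and DUSP4 overlapped between libraries. In OE the order began with DUSP5 (154 FPKM), ETV5 (124), PHLDA1 (96.5) and SPRED2 (72.7). DUSP6 (44.6) lay above ETV4 (25.5), SPRY2 (21.4), SPRY4 (15.2), SPRED1 (13.6) and DUSP4 (4.76). In OE, SPRY4 and SPRED1 were the single pair of neighbours that overlapped. DUSP6 thus lay below ETV4 in every NC library and above it in every OE library.

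The study reported from pulldown and luciferase assays that circCSPP1 binds the microRNA miR-520h. By qRT-PCR it found less miR-520h when circCSPP1 was overexpressed. It named the transcription factor gene EGR1, picked in part from these RNA-seq data, as a direct target of miR-520h. Matches to that microRNA in the 3′ UTRs of the 10 genes were therefore counted. The mature sequence from RefSeq (GRCh38.p14) is shown with its seed, bases 2 to 8, in capitals.
hsa-miR-520h: aCAAAGUGcuucccuuuagagu
A match to the seed reads CACTTTG. In GENCODE release 29, 3 of the 10 genes held at least 1 match in their longest 3′ UTR, which was also the case for 25.3% of the 12212 tested genes with a 3′ UTR there. SPRY4 held 3 matches in a 3′ UTR of 3782 bases, and SPRED1 and SPRED2 held 1 each. The other 7 genes, DUSP6 among them, held 0. The SPRY4 matches are shown because they lie in a gene with one of the largest differences, with the match in capitals, 5′ to 3′ on the strand of the gene (minus), at chr5:142314000-142314026, chr5:142313671-142313697 and chr5:142312011-142312037 of GRCh38.
SPRY4 match 1: gatgaagaagCACTTTGgggctttttt
SPRY4 match 2: cactccacccCACTTTGtccctgatgt
SPRY4 match 3: tggcaagttgCACTTTGgtgatcttgg
The SPRED1 and SPRED2 matches, in genes with small differences, are at chr15:38353953-38353979 (plus strand) and chr2:65312211-65312237 (minus strand).
SPRED1 match: tttgtttaacCACTTTGctgctaagat
SPRED2 match: ccagactcgcCACTTTGggtgcacagg
A match is a run of letters and not evidence of binding, and microRNA levels were not measured in these libraries.

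RefSeq promoter windows (GRCh38.p14, 250 bases before to 50 after a start site) were matched for DUSP6, SPRY2, SPRY4, SPRED1, SPRED2 and PHLDA1, 9 windows in all, and not for DUSP4, DUSP5, ETV4 and ETV5. They were searched on both strands for the cyclic AMP response element TGACGTCA, the AP-1 site TGAGTCA, the ETS site CCGGAAGT, the Capicua sites TGAATGAA and TGAATGGA, and the CArG box of serum response factor. The single match was an AP-1 site in 1 of the 2 SPRED2 windows. Of 34796 distinct windows of this length, 4.96% held the AP-1 site, and 1.84%, 4.13%, 2.61% and 1.30% held the other motifs in the order given. The absence of a match says only that these letters are not in these windows.

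The genes around these 10 in the pathway were tested with limma in 8 lists written from general knowledge of the pathway. The lists were written with earlier results of these data known, so their counts and p-values are not independent evidence of a direction. Of 109 genes, 95 passed the filter of 1 FPKM, and 23 of them had an adjusted p under 0.05, with 18 rises and 5 falls. Over all 12322 tested genes 11.4% passed, 4.69% with a rise and 6.66% with a fall. The 1399 calls over all genes became 3512 without OE replicate 1, 450 without OE replicate 3, and 300, 317 and 407 without NC replicates 1, 2 and 3. Counts of a list in such a fit, given below, are to be read against these totals of the 12322 genes. Of the 23 called genes, 9 were transcriptional outputs and 6 were receptors or ligands.

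**Figure D3:**
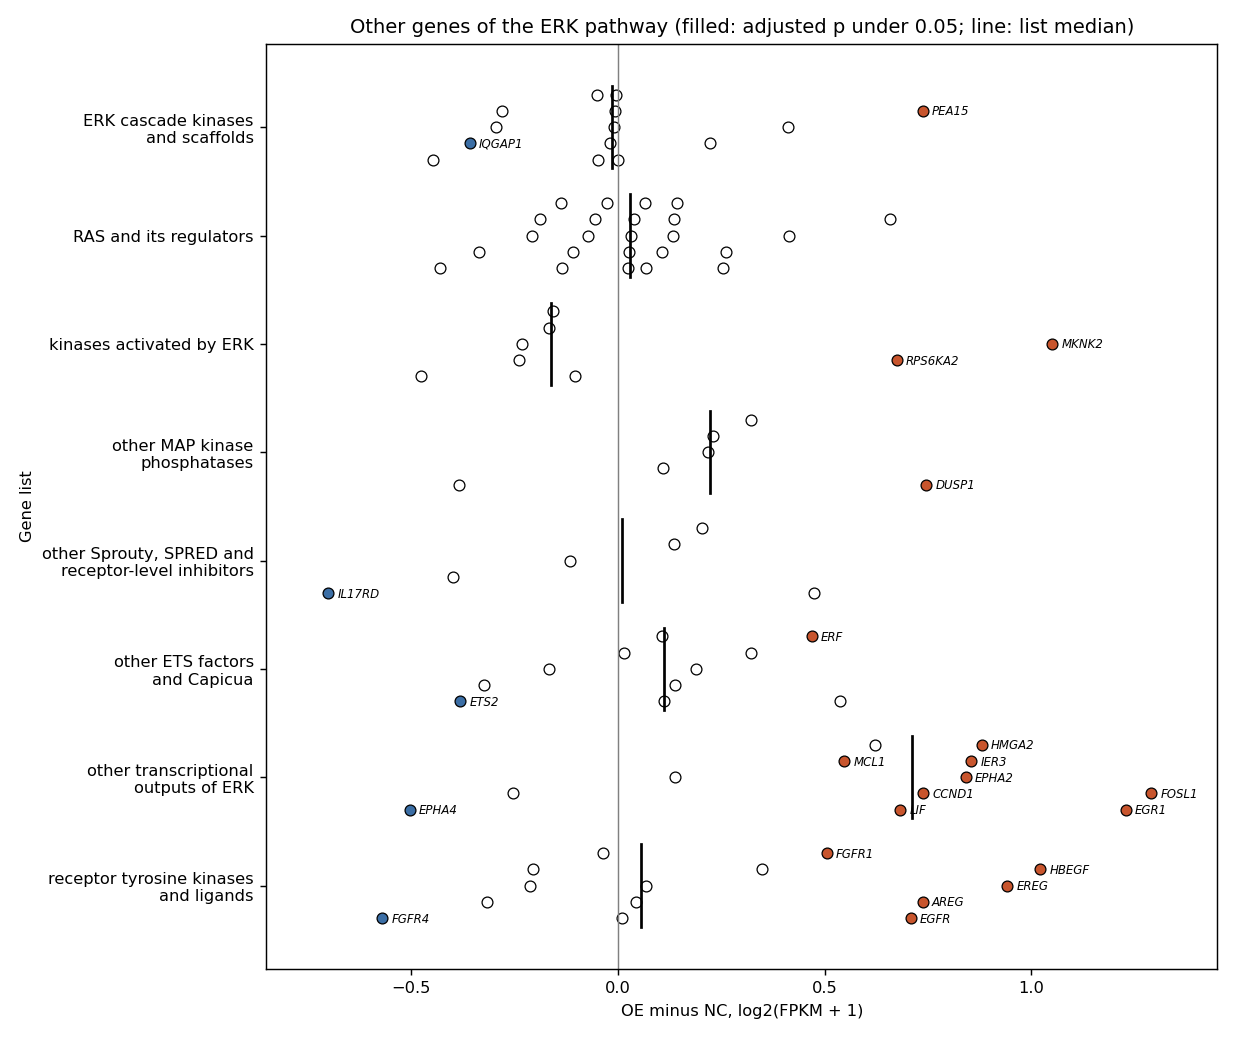
Difference between OE and NC on the log2(FPKM + 1) scale for the 95 tested genes of 8 lists, with filled and named points where the adjusted p from limma was under 0.05 and a line at the median of each list. The 8 called rises of the transcriptional outputs lie from 0.55 to 1.29, while the RAS list holds no filled point.

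Of the kinases and scaffolds of the cascade, 14 of 15 were tested, 1 rose and 1 fell, and the list median was -0.014. PEA15, a small protein that holds ERK in the cytoplasm, rose from a mean of 55.9 FPKM in NC to 94.3 ± 11.7 FPKM in OE (SD, n = 3), a log2 difference of 0.74 (adjusted p = 0.0070 from limma). IQGAP1, a scaffold of RAF, MEK and ERK, fell from 242 ± 1.68 to 189 ± 17.8 FPKM, a log2 difference of -0.36 (adjusted p = 0.039), a call that was lost without OE replicate 3 (adjusted p = 0.092) or any 1 of the NC libraries (0.14 to 0.15). Neither MAPK3 nor MAP2K2 passed. MAPK3, which encodes ERK1, measured 85.1 ± 1.89 FPKM in NC and 62.8 ± 11.1 FPKM in OE (SD, n = 3; log2 difference -0.45, adjusted p = 0.062). MAP2K2, which encodes MEK2, measured 120 ± 6.59 and 161 ± 22.1 FPKM (log2 difference 0.41, adjusted p = 0.054). Without OE replicate 1 both passed, MAPK3 with -0.58 (adjusted p = 0.0032) and MAP2K2 with 0.30 (adjusted p = 0.019), and the list then held 6 called genes. MAP2K2 also passed without OE replicate 2 (0.49, adjusted p = 0.042).

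In the list of RAS and its adaptors, exchange factors and GTPase-activating proteins, 0 of 24 tested genes passed in limma, and the median difference was 0.030. At an unadjusted p under 0.05 there were 4, and 3 passed the adjusted threshold without OE replicate 1, 1 without OE replicate 2 and 1 without OE replicate 3. Of the 8 kinases that ERK activates, 2 rose. MKNK2, a kinase of the translation factor eIF4E, rose from 70.5 ± 2.49 to 149 ± 29.9 FPKM (SD, n = 3), a log2 difference of 1.05 (adjusted p = 0.0059 from limma), and RPS6KA2, an RSK kinase, from 48.9 ± 5.01 to 78.7 ± 7.31 FPKM, a log2 difference of 0.67 (adjusted p = 0.011). The RPS6KA2 call was lost without NC replicate 1 (adjusted p = 0.065), NC replicate 3 (0.056) or OE replicate 3 (0.056). The other 6 kinases did not pass, and all had a lower mean in OE. The list held 4 called genes without OE replicate 1.

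Among the other MAP kinase phosphatases, the largest difference was that of DUSP1, above DUSP4 (0.44) and below DUSP5 (1.19) and DUSP6 (1.88). DUSP4, DUSP5 and DUSP6 were chosen on this contrast, so nothing is read from this order. DUSP1, a nuclear phosphatase of several MAP kinases, measured 32.9, 32.7 and 34.4 FPKM in NC and 65.0, 48.2 and 57.8 FPKM in OE and was the single one of 6 tested that passed (log2 difference 0.75, adjusted p = 0.011 from limma). Its call was lost without NC replicate 1, NC replicate 2 or OE replicate 3 (adjusted p = 0.059, 0.062 and 0.051). DUSP7, of the same cytoplasmic group as DUSP6, had a log2 difference of 0.32 (adjusted p = 0.12), and DUSP9, also of that group, of -0.39 (adjusted p = 0.085), which passed without OE replicate 1 (-0.45, adjusted p = 0.031). For the phosphatases of JNK and p38, DUSP8, DUSP10 and DUSP16, the differences were 0.23, 0.22 and 0.11 (adjusted p = 0.19, 0.23 and 0.55), that of DUSP16 being 0.042 without OE replicate 2. DUSP2, at 0.07 to 0.26 FPKM, was not tested. In the fit without OE replicate 1, 2 of these phosphatases passed.

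The other Sprouty and SPRED genes did not pass the test. SPRY1 measured 2.08, 2.76 and 1.17 FPKM in NC and 1.62, 1.60 and 1.90 FPKM in OE, so it overlapped (log2 difference -0.12, adjusted p = 0.75 from limma). Its difference was 0.064 without NC replicate 2 and -0.33 without NC replicate 3. SPRY3, at 0.40 to 0.65 FPKM, was not tested. SPRED3 measured 11.6, 13.8 and 11.5 FPKM in NC and 9.12, 8.81 and 9.24 FPKM in OE, a log2 difference of -0.40 that did not pass (adjusted p = 0.059). It passed without OE replicate 1 (adjusted p = 0.031).

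Of the inhibitors that act at the receptor, IL17RD, known as SEF, fell from 3.997 ± 0.142 to 2.09 ± 0.364 FPKM (SD, n = 3), a log2 difference of -0.70 (adjusted p = 0.015 from limma). That call was lost without any 1 of the NC libraries (adjusted p = 0.068 to 0.073). ERRFI1, an induced inhibitor of EGFR, measured 186, 194 and 168 FPKM in NC and 199, 301 and 272 FPKM in OE, a log2 difference of 0.47 (adjusted p = 0.089). Without OE replicate 1 the ERRFI1 difference was 0.65 and passed (adjusted p = 0.0037). LRIG1 (0.13, adjusted p = 0.45) and the adaptor SH2B3 (0.20, adjusted p = 0.19) did not pass. Without OE replicate 1, 3 genes of the Sprouty, SPRED and receptor-level list passed.

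Of the other ETS factors and Capicua, 11 of 12 genes were tested and 2 passed. ERF, a repressor that ERK removes from the nucleus, rose from 74.3 ± 1.59 to 104 ± 14.6 FPKM (SD, n = 3), a log2 difference of 0.47 (adjusted p = 0.034 from limma). ETS2 fell from 101 ± 2.42 to 77.1 ± 5.35 FPKM, a log2 difference of -0.38 (adjusted p = 0.028). Both calls were lost without OE replicate 3 (adjusted p = 0.078 and 0.11) or any 1 of the NC libraries (0.11 to 0.13). CIC, the gene of the repressor Capicua that binds ETV4, ETV5, SPRY4 and DUSP6, measured 51.1 ± 0.534 and 45.8 ± 7.66 FPKM (log2 difference -0.17, adjusted p = 0.42). For CIC the difference was -0.30 without OE replicate 1, where it passed (adjusted p = 0.017), -0.075 without OE replicate 2 and -0.051 after the GC and length correction. ETV1, the third factor of the PEA3 group, was at most 0.22 FPKM. Without OE replicate 1, 6 genes of this list passed.

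Of the other transcriptional outputs of ERK, 12 were tested and 9 passed, 8 with a rise and 1 with a fall, and the median difference was 0.71. FOSL1, the AP-1 subunit FRA-1, measured 62.0, 64.1 and 68.8 FPKM in NC and 146, 180 and 157 FPKM in OE (log2 difference 1.29, adjusted p = 0.0013 from limma). EGR1, an immediate early transcription factor, rose by a log2 difference of 1.23 (adjusted p = 0.0059). HMGA2, a chromatin protein, rose from 1.98 ± 0.326 to 4.53 ± 0.973 FPKM (SD, n = 3), a log2 difference of 0.88 (adjusted p = 0.017). IER3 rose from 138 ± 19.0 to 250.6 ± 42.1 FPKM, a log2 difference of 0.85 (adjusted p = 0.014). The receptor gene EPHA2 rose by 0.84 (adjusted p = 0.0066) and the cyclin D1 gene CCND1 by 0.74 (adjusted p = 0.0045).

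Named after their values were seen, the cytokine gene LIF (0.68, adjusted p = 0.0058 from limma) and MCL1 (0.55, adjusted p = 0.048) also rose, and EPHA4 fell, from 1.55 ± 0.173 to 0.80 ± 0.147 FPKM (SD, n = 3; log2 difference -0.50, adjusted p = 0.032). The list held 5 called genes in place of 9 without NC replicate 2, NC replicate 3 or OE replicate 3. The call of IER3 was lost in these 3 fits (adjusted p = 0.056 to 0.065). Those of HMGA2 (0.057 to 0.080), MCL1 (0.12 to 0.17) and EPHA4 (0.074 to 0.13) were lost without any 1 of the NC libraries. Without OE replicate 3 they were lost too (0.070, 0.16 and 0.068), and without OE replicate 2 those of MCL1 (0.092) and EPHA4 (0.073). FOS measured 2.84, 1.83 and 1.84 FPKM in NC and 5.75, 2.90 and 3.28 FPKM in OE and did not pass (log2 difference 0.62, adjusted p = 0.13). The FOS difference was 0.38 without OE replicate 1 (adjusted p = 0.13), and FOS passed with a replicate block (adjusted p = 0.043).

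Upstream of the cascade, 6 of 14 tested receptors and ligands passed, 5 with a rise and 1 with a fall. EGFR measured 122, 126 and 118 FPKM in NC and 203, 210 and 188 FPKM in OE (log2 difference 0.71, adjusted p = 0.0033 from limma). Of its ligands, HBEGF rose from 7.94 ± 0.962 to 17.1 ± 0.938 FPKM (SD, n = 3), a log2 difference of 1.02 (adjusted p = 0.0042). AREG rose by 0.74 (adjusted p = 0.0037) and EREG by 0.94 (adjusted p = 0.0078), while TGFA measured 37.6 ± 1.38 and 38.0 ± 3.79 FPKM (log2 difference 0.0092, adjusted p = 0.97, and -0.069 without OE replicate 2). The fibroblast growth factor receptors went both ways, FGFR1 by 0.51 (adjusted p = 0.024) and FGFR4 by -0.57 (adjusted p = 0.025). Both of these calls were lost without OE replicate 2 (adjusted p = 0.053 and 0.055), OE replicate 3 (0.075 and 0.099) or any 1 of the NC libraries (0.077 to 0.12). ERBB2 did not pass (-0.32, adjusted p = 0.12) but did without OE replicate 1 (-0.42, adjusted p = 0.012) and after the GC and length correction (-0.27, adjusted p = 0.020).

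**Figure D4:**
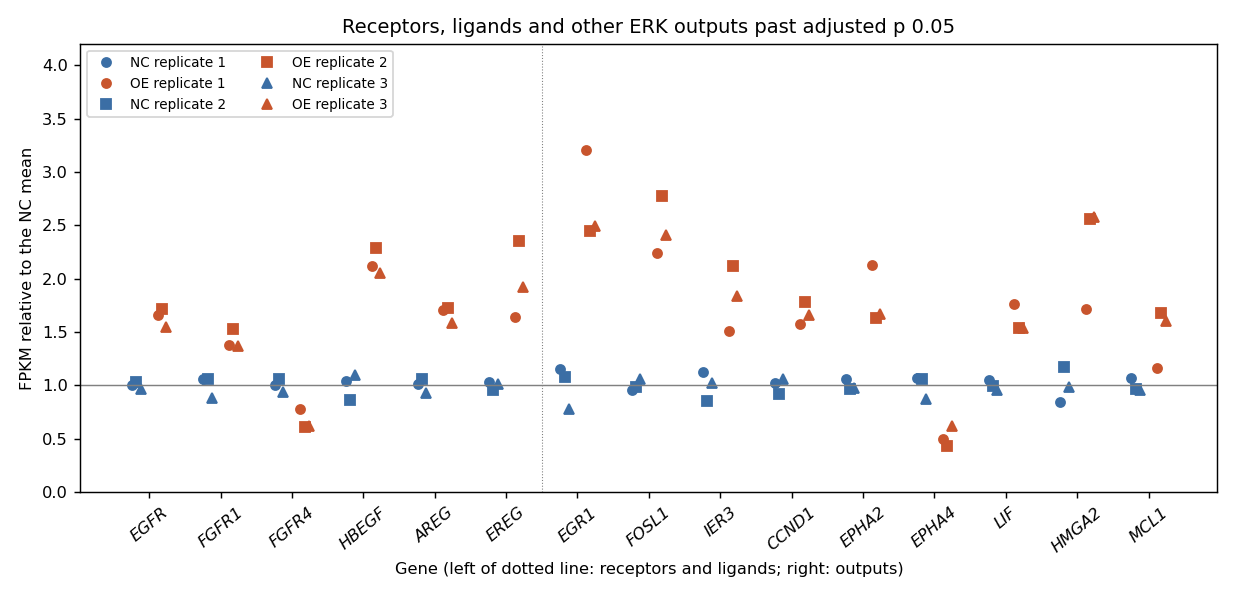
FPKM of each library divided by the NC mean of the gene, on a linear axis from 0, for the receptors, ligands and other outputs with an adjusted p under 0.05 (NC blue, OE orange, marker shapes for replicates). FGFR4 and EPHA4 lie below the NC libraries in OE and the other 13 genes above them.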

How the data were processed

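The authors isolated polyadenylated RNA, sequenced it on an Illumina NovaSeq and deposited FPKM values per gene, rounded to 2 decimals. The submitters' processing notes name the build hg38. The aligner, the annotation and the program that computed FPKM are not given in the sources used here. The values were not pooled over replicates, and the number of value columns not used was 0. FPKM also moves when other genes take more of a library, and the 20 highest genes held 14.9% to 15.2% of the summed FPKM in NC and 12.0% to 12.1% in OE.

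Values were taken to log2(FPKM + 1), and the 12322 genes whose mean reached 1 FPKM were fitted with limma 3.58.1 in R 4.3.3 (lmFit, then eBayes with trend, without covariates, two-sided p-values adjusted by Benjamini-Hochberg over all 12322). An exact permutation test of 3 libraries against 3 cannot give a p below 0.1. In data simulated for this comparison on 12322 genes, 95% of 200 genes changed by a log2 difference of 2 were recovered and 0.115% of the others called. That change was larger than the main-fit difference of any of the 10 genes (at most 1.88) or list genes (at most 1.29). Noise was drawn for each gene on its own, without the GC-linked departure of OE replicate 1. The recovery therefore does not cover smaller changes, and neither rate covers such a departure. Depth was read from genes with a single coding transcript under 800 bases in GENCODE release 29, where FPKM times length fell within 0.15 of a whole multiple of a step for 91.7% to 96.0% of 78 to 101 values per library (30% by chance). Coordinates, transcript lengths, GC content and 3′ UTRs came from GENCODE release 29 (GRCh38), which may not be the authors' annotation.

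The 10 genes and the lists were chosen with earlier results of these data known. By rule the text names the 10 genes, at most 6 called genes of each list, every other phosphatase and Sprouty, SPRED or receptor-level inhibitor, CSPP1, the markers and the 5 genes most alike in pattern. Other named genes (LIF, MCL1, EPHA4, FOS, IER2, MAPK3, MAP2K2, CIC, ETV1, TGFA and ERBB2) were added after their values were seen. Some genes of the lists and markers are not reported here. The alternatives were other pseudocounts, filters, scalings and variance models, a loess correction for GC content and length, a replicate block and leaving out each library. Figures were drawn with matplotlib 3.10.9.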

Additional observations from a re-analysis of the deposited data

How the results depend on the processing

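Of 159 values of the 10 genes under alternatives, 155 moved by less than 1 SD, 4 moved by more and 0 reversed. Part of this was fixed in advance, since other filters and the replicate block cannot change the estimate of a gene. The SD of SPRED1 (0.25) was about as large as its difference, so a move under 1 SD says little there. The median difference of the 10 genes, 0.75, became 0.88 with a filter of 5 FPKM, which leaves out DUSP4. The 1399 calls over all genes became 3520 after the GC and length correction (51.5% of them higher, against 41.3%), 834 without moderation, and 300 to 3512 with 1 library left out. The cause was not tested.

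The study's design text calls the samples paired but does not say what a replicate number marks, and the fit without a block was used. The deviations of libraries with the same number correlated at 0.0734, 0.00653 and 0.0572, and NC replicate 2 and OE replicate 2 did not correlate best with each other. A replicate block gave 923 calls over all genes, and 2734 together with the GC and length correction. With the replicate block the calls became 1 in the cascade list and 0 in the ETS list, and with the block and correction together 5 in the cascade, 1 in the RAS, 3 in the Sprouty and 4 in the ETS list.

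With 1 library left out, calls ranged from 1 to 6 in the cascade list (2 with all libraries), 0 to 3 in the RAS list (0), 1 to 4 among kinases activated by ERK (2), 0 to 2 among phosphatases (1), 0 to 3 in the Sprouty list (1), 0 to 6 among ETS factors (2), 5 to 9 among outputs (9) and 4 to 8 among receptors and ligands (6). The correction for GC and length gave 6 in the cascade, 4 in the RAS, 3 in the phosphatase, 3 in the Sprouty and 5 in the ETS list. These counts are to be read against the 3520 calls over all genes in that fit. Without moderation there were 1 in the cascade, 1 among kinases activated by ERK, 0 phosphatases, 1 ETS factor, 5 outputs and 3 receptors and ligands. Using no filter gave 1 in the cascade list, TPM gave 1 in the RAS list and the filter of 5 FPKM gave 0 in the Sprouty list, since it leaves out IL17RD. Of the 23 called genes, 10 passed under all 18 alternatives (PEA15, MKNK2, EGR1, FOSL1, CCND1, EPHA2, LIF, EGFR, HBEGF and AREG) and none reversed. DUSP4, with 464 to 895 fragments, had the lowest range of the 10 genes, and the part of depth in its small difference was not tested.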

Other observations

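The 5 genes whose pattern over the 6 libraries was most like the mean standardised profile of the 10 genes were SSH1, VPS72, KCTD5, MARCHF4 (which the table lists under a symbol turned into a date) and RGMB, with Pearson's r of 0.998 to 0.999. The 6 libraries share their 2 groups, so any gene with tight groups that do not overlap gives a high value, and 42 genes outside the 10 exceeded 0.99. SSH1, a phosphatase of cofilin, measured 55.4 to 56.5 FPKM in NC and 82.5 to 87.5 FPKM in OE. RGMB, a co-receptor of bone morphogenetic proteins, measured 9.28 to 10.2 FPKM in NC and 16.3 to 17.4 FPKM in OE.

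IER2, an immediate early gene of the output list, measured 50.4 FPKM in NC replicate 1 against 10.4 and 7.47 FPKM in the other NC libraries and 10.04 to 15.6 FPKM in OE. Its log2 difference was -0.25 (adjusted p = 0.83 from limma) and turned to 0.54 (adjusted p = 0.25) without NC replicate 1, so its sign rests on that library. Without NC replicates 2 and 3 in turn it was -0.54 and -0.76. Among the 10 genes, NC replicate 1 was the highest NC library for DUSP4, DUSP5, SPRY2, SPRY4 and PHLDA1 and not for the other 5. The share over all genes was not counted, so nothing is read from this. Of the 4 epithelial markers above 1 FPKM, all fell in OE, with log2 differences of -1.57 for CDH1, -1.42 for KRT8, -0.84 for KRT18 and -0.67 for EPCAM (adjusted p = 0.0016, 0.00056, 0.0027 and 0.017 from limma). How these falls relate to the 10 genes was not tested.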
